A study of Homo sapiens with 26 samples.

Results

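Places of the genome that 6 or more of 10 lists of binding sites had in common are described here, from chromatin immunoprecipitation and sequencing (ChIP-seq) of the estrogen receptor (ER) and the progesterone receptor (PR) in breast cancer cells. The sites of the 10 lists were merged into union regions wherever they shared 1 bp or more, which gave 64490 regions from 87206 sites. Of these, 317 regions (0.492%) held at least 1 site of 6 or more lists and are called shared regions here. They held 2344 sites, or 2.69% of all sites, and covered 766 kb. These regions were chosen by the authors' calls in the same 10 lists, so every count of lists, rank and length below is a description and carries no test.

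The lists come from T47D, an established human breast cancer line with both receptors, and from PR-deficient T47D cells. The labels do not say how the latter lost PR. All cells had been deprived of steroids in charcoal-stripped serum, the vehicle controls included, and were then given vehicle, the natural estrogen estradiol (E2) at 10 nM, the synthetic progestin R5020 at 10 nM, or both, for 45 min. In T47D an ER antibody (HC-20) and a PR antibody made in the laboratory (KD68) gave 1 list for each of E2, R5020 and E2+R5020, and a sequential precipitation of ER and then PR (reChIP) gave 1 list for E2+R5020. In PR-deficient cells the ER antibody gave 1 list for each of the 3 treatments. Each of the 26 samples of the series was a group of its own, and no value below carries an error between replicates. The 10 libraries with a list were used, with between 4014 and 19220 sites each, and the depth of the libraries is not known. Vehicle libraries had been subtracted from the lists, per the labels, and there was 1 such library for each line and antibody. The part of a shared background library in the overlap of lists was not tested.

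ER and PR are nuclear receptors that bind DNA once their steroid ligand is present. ER binds estrogen response elements, often in chromatin that the pioneer factor FOXA1 has opened, and PR binds elements that the glucocorticoid and androgen receptors can also use. The PR gene is itself induced by estrogen in breast cells, and ligand-bound PR can meet ER at the same enhancers. R5020 acts mainly through PR, which PR-deficient cells lack. Positions are those of the hg19 build, counted from 1, and which genes and sequences lie there was not analysed here.

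Each of 5 lists was held by more than 80% of the shared regions: ER of PR-deficient cells with E2, and the lists of both hormones for ER in either line, PR and the reChIP. ER sites of PR-deficient cells with E2 were the most common component, in 301 of the 317 regions (95%, exact 95% interval 91.9 to 97.1), against 11.8% of all union regions. The reChIP list took part in 284 (89.6%, 85.7 to 92.7), against 14.7% of all regions. ER of PR-deficient cells with E2+R5020 took part in 281 (88.6%, 84.6 to 91.9), against 8.67%. PR with E2+R5020 took part in 277 (87.4%, 83.2 to 90.8), against 18.2%. ER of T47D with E2+R5020 took part in 268 (84.5%, 80.1 to 88.3), against 29.4%, the highest share of all regions for any list. The ER sites of T47D with a single hormone took part less often, E2 in 201 regions (63.4%, 57.8 to 68.7, against 6.21%) and R5020 in 170 (53.6%, 48 to 59.2, against 8.14%). PR with R5020 was present in 112 (35.3%, 30.1 to 40.9, against 9.6%). The rarest components were ER of PR-deficient cells with R5020, in 73 (23%, 18.5 to 28.1, against 13.4%), and PR with E2, in 71 (22.4%, 17.9 to 27.4, against 12.3%). Shares above those of all regions follow from the rule of 6 lists, and nothing is read from them. The intervals cover counting error over regions only.

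**Figure D1:**
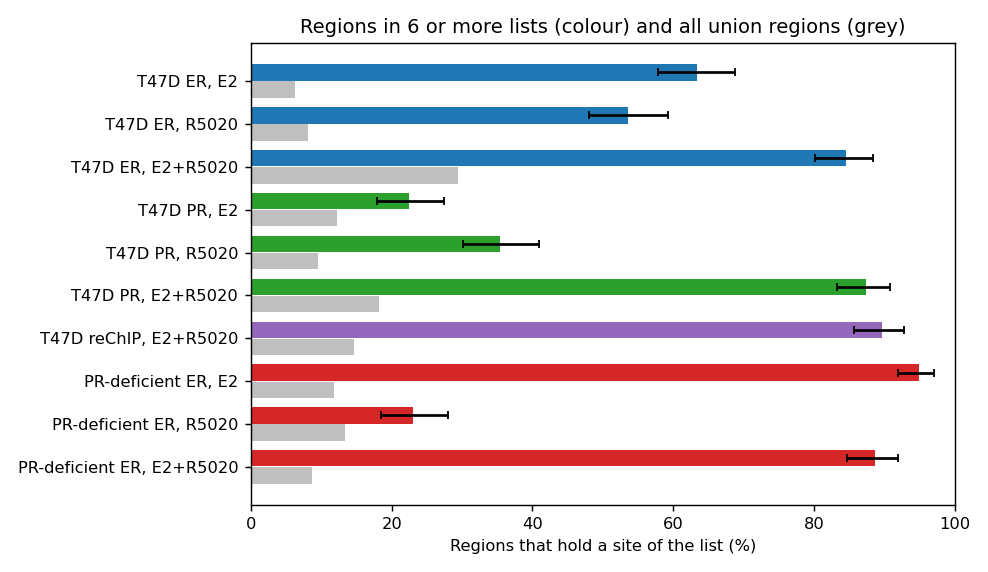
Share of regions (horizontal axis, %) that held a site of each of the 10 lists, for the 317 regions in 6 or more lists (coloured bars, with exact 95% intervals) and for all 64490 union regions (grey bars). The PR-deficient ER list of E2 stands highest at 95%, and the PR list of E2 lowest at 22.4%.

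The number of shared regions rested on these common lists, which follows in part from the rule. A region of exactly 6 lists drops out once a list it holds is left out, so commoner lists tend to cost more regions. Regions were drawn anew from the other 9 lists each time, which can also split regions that the list left out had joined. Of these, 6 or more lists were then held by 115 regions without ER of PR-deficient cells with E2, 125 without its E2+R5020 list and 129 without the reChIP. The number was 143 without PR with E2+R5020, 145 without T47D ER with E2+R5020 and 187 without T47D ER with E2. Leaving out any of the other 4 lists left between 238 and 277 regions.

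Regions in 6 lists numbered 209, in 7 lists 81, in 8 lists 26 and in 9 lists 1, and no region held all 10. The 317 regions showed 87 different combinations of lists, of which 46 occurred once. The commonest combination, in 74 regions (23.3%), was ER with E2 and with E2+R5020 in both lines, PR with E2+R5020 and the reChIP. The same 6 lists plus T47D ER with R5020 gave the next, with 27 regions, and these 7 plus PR with R5020 the third, with 17. In all, 134 regions (42.3%, 36.8 to 47.9) held those 6 lists with or without others, against 0.208% of all union regions. Any region with those 6 lists is a shared region by the rule, so the same 134 regions make up both shares. ER with E2 was listed in both lines in 190 shared regions (59.9%, 54.3 to 65.4), against 3.41% of all regions. ER with both hormones was listed in both lines in 234 (73.8%, 68.6 to 78.6, against 1.33%), and ER with R5020 in 39 (12.3%, 8.9 to 16.4, against 0.692%). Regions of 1 list, 80.4% of all regions, cannot hold a pair of lists, so the rule fixes part of these contrasts too.

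ER was found in both lines, with any treatment, in 298 shared regions (94%, 90.8 to 96.4), against 5.63% of all union regions. An ER, a PR and a reChIP site of T47D came together in 255 (80.4%, 75.6 to 84.7), against 1.16%. A shared region can lack all ER lists of a line, or all PR lists, only if it holds nearly all the others. Of all union regions, 80.4% held 1 list and could show neither of these sets nor the pairs below. These contrasts with all regions are thus fixed in part by the rule of 6 lists, and nothing is read from them. With both hormones, ER and PR of T47D were listed at the same region in 233 (73.5%, 68.3 to 78.3), against 1.54% of all regions. They were listed together in 76 with R5020 alone (24%, 19.4 to 29.1, against 0.755%) and in 24 with E2 alone (7.57%, 4.91 to 11.1, against 0.158%). Without the 2 lists whose sites took part least, PR with E2 and PR-deficient ER with R5020, which was tried only once the values were known, 233 regions held 6 or more of the other 8 lists. ER of both lines was then present in 97% of them, and ER, PR and reChIP together in 91%. Regions were drawn anew from these 8 lists, and a rule of 6 among 8 leaves less room to lack a class of lists. The rule thus fixes part of both shares.

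There were 4 lists of both hormones, against 3 each of E2 and of R5020, so the counts below are not on 1 scale. Holding all 4 depended on the number of lists required, since 41 regions of exactly 5 lists (9.23%) did so. All 4 of them (T47D ER, PR, reChIP and PR-deficient ER) were held by 187 shared regions (59%, 53.4 to 64.5, against 0.357% of all regions), 3 by 102 and 2 by 28, and every shared region held at least 2. Of the 3 lists of R5020, 90 regions held none, 115 held 1, 96 held 2 and 16 held all 3. Of the 3 lists of E2, 217 regions held 2, 79 held 1, 20 held 3 and 1 held none. The shared regions therefore fell into those listed with R5020 alone, 227 of 317, and those without, 90 (28.4%, 23.5 to 33.7, against 70.5% of all regions).

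Without the 3 lists of R5020, 7 lists remain, and the rule of 6 allows a region to lack at most 1 of them. The make-up of the 90 regions without R5020 therefore follows from the rule, apart from which list was lacking. All 90 held the reChIP and both PR-deficient lists of E2 and E2+R5020, 89 held T47D ER with E2+R5020, 88 held PR with E2+R5020 and 84 held T47D ER with E2. Their T47D ER sites with E2 ranked high, at a median of the highest 4.37% of that list. Of the 112 regions with a PR site under R5020, 54 held T47D ER with E2 (48.2%), at a median rank of 15.8%, and 101 held PR with both hormones, at a median rank of 3.22%. In the 76 regions with both ER and PR under R5020 in T47D, PR with both hormones had a median rank of 2.01%, against 8.96% over all shared regions that held it.

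Ranks were taken within each list, from 1 for the highest score, and given as a percentage of the list's sites, with tied sites at their mean rank and the best site of a list standing for its region. Shared regions stood high in some lists and not in others. T47D ER with E2 showed the highest ranks, with a median of 6.96% (quartiles 2.28 and 26.6%), and 111 of its 201 regions lay in the highest 10% of the list. PR with E2+R5020 followed with a median of 8.96% (quartiles 2.38 and 49.3%) and 148 of 277 regions in the highest 10%. The PR-deficient ER lists had medians of 13% with E2 and 17.7% with E2+R5020, with 130 of 301 and 97 of 281 regions in the highest 10%. T47D ER with both hormones had a median of 21.2%, the reChIP 22.4%, T47D ER with R5020 23.1% and PR with R5020 23.9%. ER of PR-deficient cells with R5020 stood at 33.3% and PR with E2 at 70.7%. Tied scores limit these values. Giving tied sites their lowest or their highest possible rank put the median of PR with R5020 at 9.69 or 38.2%, of PR-deficient ER with R5020 at 18.8 or 47.9%, of PR with E2 at 41.5 or 100%, of T47D ER with R5020 at 17.1 or 29.2% and of T47D ER with both hormones at 18 or 24.3%. The order of these lists and the reChIP among themselves thus depends on the treatment of ties, except that PR with E2 came last under each. In PR-deficient ER with R5020 and PR with E2 many sites sat at the lowest score. Sites at the lowest score kept made up 54.3% of the PR-deficient R5020 sites in shared regions and 52.1% of that whole list. For PR with E2 the shares were 60.8% and 58.5%. In both lists the sites in shared regions thus had scores much like those of the list as a whole.

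**Figure D2:**
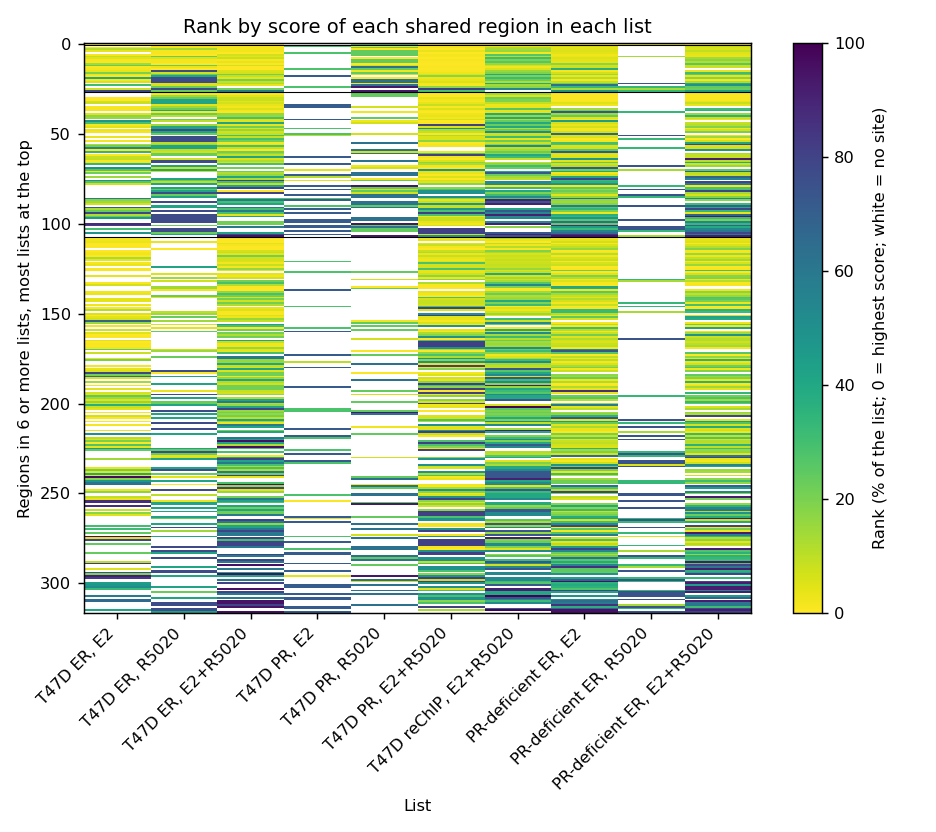
Rank by score (colour, % of the list, 0 for the highest score) of the 317 shared regions (rows, most lists at the top, black lines between 9, 8, 7 and 6 lists) in each of the 10 lists (columns), with white for no site. The columns of PR with E2 (71 regions) and PR-deficient ER with R5020 (73 regions) are mostly white.

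The share of each list's leading sites that fell into shared regions also differed between lists. Among the 100 highest-scoring T47D ER sites with E2, 52 lay in a shared region, where 5.06% of the whole list did. With ties at place 100 included, 36 of 116 leading PR sites with both hormones did, against 2.73% of the list. In PR-deficient cells 27 of 102 leading sites with E2 and 25 of 102 with both hormones did, against 4.22 and 5.28%. The reChIP list, which took part in 89.6% of the shared regions, had 7 of 101 leading sites there (6.93%), against 3.65% of the list. T47D ER with both hormones had 16 of 127 (12.6%), against 1.6% of the list. T47D ER with R5020 had 15 of 101 (14.9%, against 3.67%) and PR with R5020 20 of 180 (11.1%, against 2.31%). PR with E2 had 1 of 188 (0.532%, against 0.93% of the list) and PR-deficient ER with R5020 0 of 163 (against 1.15%). These 2 counts are near the shares of their whole lists. None of the 10 lists had its highest-scoring site in a shared region.

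Rank rose with the number of lists in a graded way for the ER sites of E2 and for PR-deficient ER with both hormones. In T47D the median rank of single ER sites with E2 improved from 65.8% for regions of 1 list through 39.7% for 3 lists and 20% for 5 to 6.32% for 6, and stood at 9.17% for 7 or more. In PR-deficient cells with E2 it went from 73.1% for 1 list to 20.2% for 5 and 15.5% for 6. With both hormones it went there from 79.1% for 1 list to 21.5% for 5 and 19% for 6. These are the 3 lists of wide sites, and their median site length also rose from 1 list to 6 lists. It went from 1053 to 1488.5 bp for T47D ER with E2. In PR-deficient cells it went from 892 to 1285.5 bp with E2 and from 1254 to 1330 bp with both hormones. A wider site can meet sites of more lists, and the part of this in the ranks was not tested. PR with both hormones went from 49.3% for 1 list to 17.9% for 4, 5 and 6 lists and 5.62% for 7 or more. T47D ER with R5020 stood at 76.9% for 1 list and at 41.5% for every larger number. T47D ER with both hormones stood at 59.5% for 1 list, 41.7% for 3, 59.5% for 4 and 21.2% for 6. The reChIP went from 53.1% for 1 to 3 lists to 31.5% for 6, and PR with R5020 from 62.6% for 1 to 23.9% for 3 or more. For PR with E2 and PR-deficient ER with R5020 such medians say little, since they move between 2 steps of tied scores. They were 28.4 and 33.3% in regions of 2 to 5 lists, and 70.7 and 73.9% in regions of 1 list, of 6 and of 7 or more. With the best site of each region, PR-deficient ER with R5020 had a median of 33.3% both in shared regions and in regions of 5 lists.

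**Figure D3:**
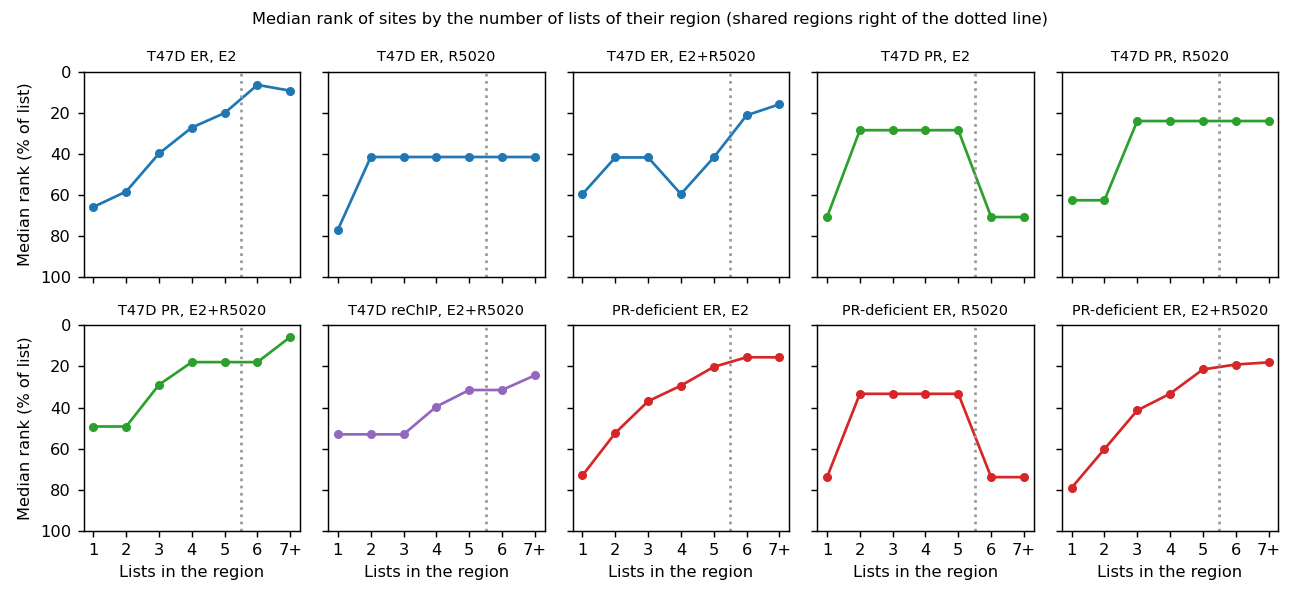
Median rank of single sites (vertical axis, % of the list, highest scores at the top) by the number of lists in their region (horizontal axis, 1 to 7 or more), 1 panel for each list, with shared regions to the right of the dotted line. T47D ER with E2 goes from 65.8% at 1 list to 6.32% at 6, whereas PR with E2 moves between 2 steps of tied scores, at 28.4% and 70.7%.

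The region with the most lists lay on chromosome 7 at 157410814 to 157415804 and held 9, all but PR with E2. T47D ER ranked 4 of 19220 there with both hormones, 24 of 5338 with R5020 and 78 of 4014 with E2. ER of PR-deficient cells ranked 14 of 7742 with E2 and 16 of 5663 with both hormones. PR ranked 26.5 of 11908 with both hormones, and the reChIP 38.5 of 9861. So 7 lists placed it among their highest 2%, while PR with R5020 (rank 1521.5 of 6358) and PR-deficient ER with R5020 (rank 482.5 of 9141) stood lower. A stretch of 150 bp, at 157413898 to 157414047, lay in sites of all 9 lists. In PR-deficient cells the ER sites there were 3785 bp long with E2 and 3881 bp with both hormones, against 300 bp with R5020.

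Among the 26 regions of 8 lists, the best mean rank belonged to chromosome 14 at 69036279 to 69037512. It lacked T47D ER with E2, yet PR with both hormones ranked 7, T47D ER with both hormones 10 and T47D ER with R5020 10.5. PR-deficient ER ranked 434 there with E2 and 472 with both hormones, so the place was listed in both lines. Next in rank came a second place on chromosome 14, from 74009399 to 74010699, and one on chromosome 5, from 56052496 to 56054941, each with all lists but PR with E2 and PR-deficient ER with R5020. These same 8 lists were held by 17 of the 26. The former lay in the same neighbourhood as another of the 17, from 74040441 to 74042662 on chromosome 14, with T47D ER at rank 70 with R5020 in each and at 78 and 134 with E2.

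Regions with the same 8 lists differed in how the receptors ranked. On chromosome 4 at 6633867 to 6635786, PR led, with rank 3 with both hormones and rank 5 with R5020, the best ranks of any shared region in these 2 lists. ER stood there at 18.5 with R5020 and 144.5 with both hormones, and at 536.5 with E2. In PR-deficient cells it stood at 1380 with E2. On chromosome 2 at 11679185 to 11680688 the T47D ER site with E2 ranked 54 and that with R5020 91, while the PR site with R5020 ranked 1521.5. On chromosome 6 at 149400602 to 149402213 the same 3 ranks were 41, 91 and 1521.5, but PR with both hormones, at rank 63.5 (the highest 0.533% of its list), stood above T47D ER with E2 (the highest 1.02%). Chromosome 1 at 17640530 to 17641983 ranked 32 for T47D ER with E2, 41.5 with both hormones and 3977.5 for PR with R5020. The first of these 4 regions thus ranked higher for PR with R5020 than for T47D ER with E2, and the other 3 the other way round.

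Further regions of 8 lists among the 20 best included a pair on chromosome 22, from 29912699 to 29915231 and from 41128277 to 41129996. Others were found on chromosome 9 (74397696 to 74399119) and on chromosome 11 (129193912 to 129195709). On chromosome 22 the former ranked 18.5 for T47D ER with R5020 and the latter 4103, although both lay in the highest 4% of the T47D ER list of E2. Chromosome 9 at 74397696 held PR-deficient ER with R5020, at rank 1192, and lacked PR with R5020. Chromosome 11 at 129193912 ranked 16 for PR with R5020. The same 8 lists as on chromosome 4 were held on chromosome 5 from 167779733 to 167781416, on chromosome 16 from 25129453 to 25132279, and at 2 places on chromosome 21, from 37564627 to 37566371 and from 43076587 to 43078031. Chromosome 8 at 66933712 to 66935256 held PR with E2 in place of T47D ER with E2, and chromosome 11 at 120507083 to 120510722 and chromosome 1 at 202100683 to 202103257 held PR with E2 beside it.

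**Figure D4:**
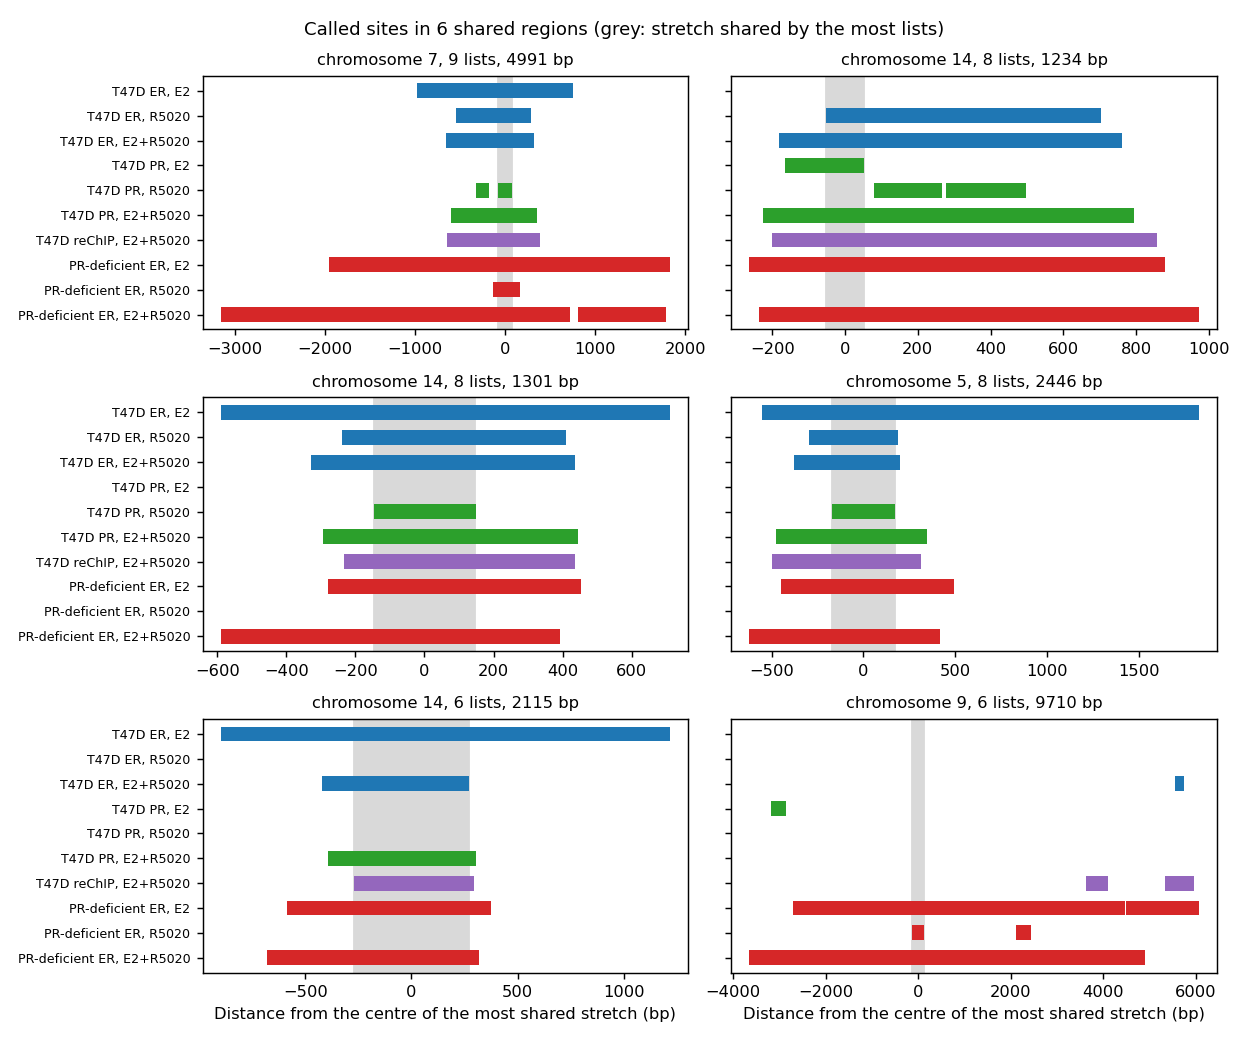
Called sites (bars, to scale) of each list (rows) in 6 shared regions, by distance in bp from the centre of the stretch that the most lists share (grey). In the first 5 panels sites of all lists held, or all but 1 (PR with R5020 on chromosome 14, in the panel with 1234 bp), cover the grey stretch, whereas in the last, the 9710 bp region on chromosome 9, at most 3 lists share a base.

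The best rank of a shared region in each list was held by few places. For T47D ER with E2 it was rank 2, on chromosome 14 at 50458957 to 50461071. That region held the commonest 6 lists, with rank 71 in PR-deficient cells with E2 and rank 108 for PR with both hormones. For T47D ER with R5020 it was rank 2, on chromosome 11 at 120507083 to 120510722. For T47D ER with both hormones it was rank 2.5, on chromosome 10 at 79631764 to 79632823, which had no E2 site in T47D but ranked 1225.5 with E2 in PR-deficient cells. The reChIP was highest on chromosome 19 at 39899852 to 39901093, at rank 16.5, a place with no PR site of any treatment but T47D ER with both hormones at rank 5. PR-deficient ER was highest on chromosome 8 at 129153571 to 129155119, at rank 7 with E2 and 8.5 with both hormones. That region held no ER site of T47D, but PR sites with all 3 treatments and a reChIP site. For PR with E2 it was rank 44, on chromosome 21 at 9654825 to 9656065, less than 2 Mb from the edge of a long stretch that no list covered. For PR-deficient ER with R5020 it was rank 482.5, which 3 regions shared.

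Few shared regions lacked a whole class of lists. Where the class has 3 lists, 7 others remain and the rule lets a region lack at most 1 of these, so that what such regions held is mostly fixed by it. No list of PR-deficient cells was held by 9 shared regions (2.84%, against 75.3% of all regions). All 9 held ER and PR with R5020 and with both hormones, 8 held T47D ER with E2 and 8 the reChIP. Their E2 sites in T47D had a median rank of 73.5%, against 6.96% over all shared regions that held the list, while PR with both hormones stood at 1.65%. Of their 8 E2 sites, 6 ranked between 63.5 and 97.2% and 2 ranked high. The latter lay on chromosome 17 at 29981400 to 29983766, with 7 lists and an E2 rank of 1.12%, and on chromosome 3 at 15333542 to 15335679, with 6 lists and an E2 rank of 4.58%. The 10 regions without any T47D ER list (3.15%, against 59.1% of all regions) all held both PR-deficient lists of E2 and E2+R5020, PR with both hormones and the reChIP, and 8 held PR with R5020. In 4 of these 10, 1 base lay in 6 lists. The 19 regions without a PR list (5.99%, against 62.9% of all regions) all held the reChIP and both PR-deficient lists of E2 and E2+R5020, 18 held T47D ER with both hormones and 16 held it with R5020. The 33 without the reChIP (10.4%, against 85.3% of all regions) ranked lower, with T47D ER with E2 at a median of 31% and T47D ER with both hormones at 59.5%, against 6.96 and 21.2% over all shared regions that held those lists.

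The 118 regions that held PR with E2 or PR-deficient ER with R5020 differed from the other 199. T47D ER with E2 took part in 37 of the 118 (31.4%) and in 164 of the 199 (82.4%). Its median rank was 30.3% in the former and 4.87% in the latter. ER of T47D with both hormones took part in 63.6% and 97% of them. Regions with either list were longer, with a median of 2369 bp against 1773 bp, and in 58 (49.2%) 1 base lay in 6 or more lists, against 172 (86.4%). Since a member needs 6 lists, regions with these 2 lists can lack others, and part of each contrast is fixed by the rule.

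Shared regions were long. The median length was 1993 bp (quartiles 1444 and 2751 bp, range 322 to 9710 bp), against 255 bp over all union regions. A union region grows with the number of sites joined, and 80.4% of all regions held 1 list. The rule thus fixes part of this contrast. Medians were 1215 bp in regions of 3 lists, 1623 bp in those of 4 and 1691 bp in those of 5. All but 3 of the 317 (0.946%, against 83.3% of all regions without one) held a list of wide sites, namely ER with E2 in either line or with E2+R5020 in PR-deficient cells. Within a list, sites of shared regions were wider than the list's other sites in most cases. A wider site can meet sites of more lists, so the rule can favour this too. ER sites of T47D with both hormones had a median of 481 bp there against 208 bp elsewhere, PR sites with both hormones 489 bp against 289 bp and reChIP sites 506 bp against 272 bp. T47D ER sites with E2 had 1693 bp against 1155 bp. The sites of PR with R5020 (156 and 149 bp), PR-deficient ER with R5020 (245 and 236 bp) and PR-deficient ER with both hormones (1328 and 1329.5 bp) were nearly as long elsewhere.

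Not every shared region was 1 place of overlap. In 230 (72.6%) at least 1 base lay in sites of 6 or more lists, and in 202 (63.7%) 1 base lay in sites of all the lists held. The shared stretch of the 230 had a median of 244 bp, and the regions a median of 1756 bp. The other 87 (27.4%) were chains of neighbouring sites, with a median of 2839 bp. Chained regions held PR-deficient ER with R5020 in 43 of 87 (49.4%), against 30 of 230 (13%), and PR with E2 in 36 (41.4%), against 35 (15.2%). They held T47D ER with E2 in 29 (33.3%), against 172 (74.8%). The longest region, on chromosome 9 at 137246212 to 137255921, held 6 lists of which at most 3 shared a base. Those on chromosome 16 at 2762857 to 2772296 and chromosome 9 at 140061487 to 140070220 were 9440 and 8734 bp long, with at most 4 and 3 lists at a base. The shortest, on chromosome 19 at 44920082 to 44920403, was 322 bp long and had all 6 of its lists on a stretch of 156 bp. It held no list of wide sites, and neither did chromosome 11 at 48102595 to 48103204, of 610 bp. Chromosome 12 at 16089577 to 16090252, of 676 bp, had its 6 lists on 119 bp.

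**Figure D5:**
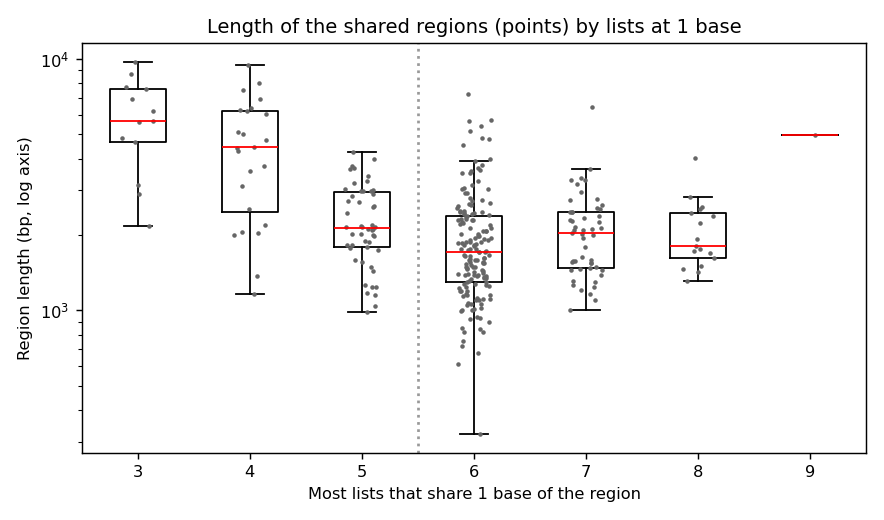
Length (vertical axis, bp, log scale) of the 317 shared regions (points) by the largest number of lists that share 1 base (horizontal axis), with boxes for the quartiles, red lines for medians and whiskers to the farthest point within 1.5 box lengths. Regions left of the dotted line are chains, and the 13 with at most 3 lists at a base have a median of 5633 bp.

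The layout of sites inside shared regions differed by pair of lists. Where a list had several sites in a region, any overlapping pair counted as an overlap. The closest pair of centres gave the distance. Over the regions that held both of a pair, sites of T47D ER with both hormones and the reChIP overlapped in 246 of 251 (98%), with centres a median of 43.5 bp apart. T47D ER and PR with both hormones overlapped in 219 of 233 (94%), with centres 51.5 bp apart, close to the 56 bp of the 762 other regions with both. T47D ER with R5020 lay a median of 57.5 bp from ER and 58.5 bp from PR with both hormones. The nearest sites of these 4 lists of T47D thus sat close to 1 centre. The wide ER sites of E2 were centred a median of 160.2 bp from the ER sites of both hormones in T47D and 126.2 bp from the ER sites of E2 in PR-deficient cells, which they overlapped in 190 of 190 regions. PR-deficient ER with R5020 overlapped the wide sites of its own line in most shared regions with both, 66 of 67 (98.5%) with both hormones and 63 of 69 (91.3%) with E2. The shares were lower with the narrower lists of T47D. It overlapped the reChIP in 39 of 57 (68.4%) and PR with both hormones in 27 of 48 (56.3%), with centres a median of 197 and 199 bp apart. It overlapped T47D ER with both hormones in 19 of 42 regions (45.2%), with centres a median of 592 bp apart, whereas in 464 other regions that held both, 84.5% overlapped, with centres 53.8 bp apart. PR with E2 overlapped T47D ER with both hormones in 20 of 43 (46.5%), with centres 405.5 bp apart, against 90.1% and 43 bp in other regions, and PR with both hormones in 36 of 57 (63.2%), 155 bp apart. Sites were joined into a region only where they overlapped, so an other region with no list besides the pair must show an overlap. In shared regions, sites of further lists can join sites of the pair that do not overlap. The joining rule thus fixes part of these contrasts with other regions, and how large a part was not tested. The 73 and 71 shared regions with these lists had median lengths of 2469 and 2371 bp. The part of length in these contrasts was not tested either.

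Shared regions lay on 23 chromosomes, with none of the 694 union regions of chromosome Y among them. Chromosome 17 held the most, 28, which is 11.4 per 1000 of its union regions (exact 95% interval 7.6 to 16.5), against 4.92 per 1000 over all chromosomes. Chromosome 22 had 9.35 (4.04 to 18.3), chromosome 14 9.15 (5.93 to 13.5) and chromosome 21 8.72 (4.36 to 15.5). Chromosome 3 held the most union regions, 6072, but only 18 shared ones, 2.96 per 1000 (1.76 to 4.68), and chromosome X held 2. The order changed when only regions of 2 or more lists were counted, of which 2.51% were shared regions over all chromosomes. Chromosome 14 then came first, with 5.09%, ahead of chromosome 17 with 4.27%, while chromosome 21 had 3.36%, chromosome 22 2.9% and chromosome 3 1.49%. The lists themselves were spread unequally. Chromosome 3 held 17.7% of the T47D ER sites with R5020 and 15.5% of the PR sites with both hormones, but 6.03% of the T47D ER sites with E2 and 5.61% of those of PR-deficient cells. Chromosome 17 held 5.75% and 6.35% of the latter 2 lists, and 2.85% and 3.01% of the former 2.

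Of the 317 regions, 75 (23.7%) had another within 100 kb, in 34 groups. The largest groups had 4 members, on chromosome 8 from 128812206 to 128884919 and on chromosome 4 from 6633867 to 6775669, the latter with the region that led the PR lists. Groups of 3 lay on chromosome 21 from 43076587 to 43103394, chromosome 12 from 116823054 to 116933997 and chromosome 17 from 80070898 to 80195354. The other 29 groups were pairs. Around a shared region a median of 13 other union regions were centred within 100 kb, against 10 around all union regions. Stretches of at least 3 Mb that no list covered had 7 shared regions within 2 Mb (2.21%, 0.892 to 4.5), against 9.24% of all union regions. The best ranked of the 7 lay on chromosome 7 from 57416235 to 57417303, and next came one on chromosome 20 from 30627739 to 30629391 and one on chromosome 10 from 44273697 to 44276227.

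The regions on either side of the threshold of 6 lists had medians close to each other. The 209 regions of exactly 6 lists had a median length of 1862 bp and the 444 regions of exactly 5 lists 1691 bp. Over the lists a region held, the mean rank had a median of 28.9% in the former and 33.9% in the latter. The best ranked with 6 lists were chromosome 14 at 50458957, chromosome 17 at 1847736 to 1850670 and chromosome 19 at 39899852. Just outside lay chromosome 3 at 127022731 to 127023815, the region of 5 lists with the best mean rank, with rank 1 for T47D ER with both hormones, T47D ER with R5020 and PR with both hormones. It held no list of E2 alone or of PR-deficient cells, and so stopped at 5. Chromosome 19 at 2524485 to 2526424 stopped there without a PR list, with T47D ER with E2 at rank 20. Chromosome 16 at 4201205 to 4204434 did so without a T47D ER list, with ranks of 49 and 28 in PR-deficient cells with E2 and with both hormones.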

How the data were processed

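The 10 deposited lists of called sites were made, per the submitters' processing notes, with Bowtie2 and MACS on hg19, whose versions and settings are not given in the sources used here. The labels state that vehicle, and for the reChIP also IgG, had been subtracted before the lists were deposited. Each list comes from 1 library. Sites carry a score deposited by the authors, whose unit is not stated, and it was used only for ranks inside a list. The deposited starts, ends and lengths count from 1. Groups came from the sample titles, and 16 samples without a list were not used.

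Merging, ranks, the number of lists at 1 base and exact Clopper-Pearson 95% intervals used Python 3.11.15 (SciPy 1.17.1, pandas 2.3.3, NumPy 2.4.6), and plots used matplotlib 3.10.9. Merging and depth at 1 base were tested on simulated lists. Named regions are the 20 with the most lists (ties by mean rank), the best in each list, the 3 longest and shortest, the 3 best on either side of the threshold, 3 near stretches without sites, and groups and exceptions singled out after their values were seen. The members and rules were chosen with earlier results of these data known. Planned motif searches and gene lists were not run, as no hg19 sequence or gene annotation was used.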

Additional observations from a re-analysis of the deposited data

How the results depend on the processing

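The number of shared regions depends on how sites are joined and on which are kept, and moved by over 1.5 times in 12 of 21 settings. It was 91 where sites had to overlap by 50% of both, 173 with sites cut to 200 bp about their centre, 141 with the higher-scoring 50% of each list, 126 with lists of equal length (4014 sites), 761 for 5 or more lists and 108 for 7 or more. Without 1 list, and with regions drawn anew, it was 187 (T47D ER, E2), 145 (T47D ER, E2+R5020), 143 (PR, E2+R5020), 129 (reChIP), 115 (PR-deficient ER, E2) and 125 (PR-deficient ER, E2+R5020). The median length was 420 bp with sites of 200 bp and 1756 bp where 1 base had to lie in 6 lists.

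Under that last rule, 87% of regions held an ER, a PR and a reChIP site. T47D ER with E2 then took part in 74.8%, T47D ER and PR with E2+R5020 in 91.3% each, PR with E2 in 15.2%, the reChIP in 94.3% and PR-deficient ER with R5020 in 13%. With the lowest score raised by 1 step, ER, PR and reChIP came together in 85.5%, T47D ER with E2 took part in 72.4%, with E2+R5020 in 92.1%, PR with E2 in 8.88%, the reChIP in 93.5% and PR-deficient ER with R5020 in 10.7%. With sites of 200 bp the former share was 86.1%. Without PR with E2 and PR-deficient ER with R5020, which was tried only once the values were known, it was 91%, and ER of both lines was present in 97%. The cause of these shifts was not tested. The motif window and the distance to a gene start were not run. No paired analysis was possible because all groups have a single library. Ranks within a list are limited by ties, and depth is not known.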

Other observations

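Rank orders of the shared regions were alike for some pairs of lists and not for others, given here as Spearman's rho across regions that held both, with no test, since regions chosen for being called are not independent replicates. The PR-deficient ER lists of E2 and E2+R5020 ranked 277 regions nearly alike (rho 0.92). Other pairs of ER lists within a line varied. PR-deficient ER with R5020 had a rho of -0.12 with E2 (69 regions) and -0.04 with both hormones (67 regions). T47D ER with E2 had a rho of 0.43 with both hormones (182 regions) and 0.06 with R5020 (97 regions). For T47D ER with R5020 and with both hormones it was 0.47 (139 regions). T47D ER with E2 and PR-deficient ER with E2 ranked 190 regions with a rho of 0.57, and T47D ER with both hormones and the reChIP 251 regions with a rho of 0.53. PR with both hormones and PR-deficient ER with E2 had a rho of -0.03 over 261 regions, and T47D ER with E2 and PR with both hormones 0.00 over 184.

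A list often had several sites in 1 shared region. The reChIP did so in 60 regions, PR with both hormones in 40 and T47D ER with both hormones in 33, and T47D ER with E2, whose sites are wide, in 2. PR with R5020 had up to 7 sites in 1 region. In 169 regions (53.3%) each list held had 1 site.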
